A study of Mus musculus with 3 samples.

Results

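Distal chromosome 14 was the stretch of mouse chromosome 14 from 75 Mb to the last bin of the methylation profile, which ended at base 124902400. It held 249512 of the 12313737 bins of 200 bp that the profile gave for the 19 autosomes, and chromosome 14 below 75 Mb, with 375000 bins, served as its comparison. The region was picked because bins with few or no reads were poorer in reads in 1 of the 3 libraries, from Braf organoids in Base medium. It was thus selected on background coverage in that library. The low background of that library is therefore the rule of choice and is given below as a description. The ratio of the other two libraries played no part in the choice.

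The study followed DNA methylation in organoids, small self-renewing epithelial cultures, grown from crypts of the proximal colon of male mice around 40 days old. The mice were heterozygous for a Braf allele that Cre recombinase switches to the oncogenic V600E form (Braf+/LSL). The first library came from Braf organoids, in which lentiviral Cre had activated the allele, after selection for growth in Base medium, which lacks the stem cell niche factors. The second came from Braf organoids in full medium, which supplied Wnt3a, R-spondin, Noggin and EGF. The third, called EV, came from organoids given the lentiviral backbone alone, in full medium, so its cells carried the allele without Cre. All 3 cultures were 5 months old and were then grown for 3 weeks. Each group was 1 library, so no difference has a replicate check, every ratio compares 2 libraries rather than 2 conditions, and no p-value is given. The labels do not say whether the cultures came from 1 animal.

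In MBD-seq, a methyl-CpG-binding domain protein on beads captures methylated DNA fragments, and dense runs of methylated CpG are captured best. Fragments from elsewhere come along at a low rate, and this background is spread, though unevenly, over the DNA that entered the capture. The distal region holds long gene-poor stretches with protocadherin and Slitrk adhesion genes, neural transcription factors such as Pou4f1, Sox21 and the Zic pair, the crypt factor Klf5, and the glypicans Gpc5 and Gpc6, cell-surface carriers of heparan sulphate.

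The distal region held 111 protein-coding genes in the RefSeq gene table, and promoter sequences from RefSeq (GRCm38.p6) were found for 98 of them, with 123 start sites. Each sequence reached from 250 bases before to 50 bases after a start. The motif counted was CG, which reads the same on both strands. CG occurred 17 times in the median distal promoter and 14 times in the median of 20085 promoters of the autosomes. The share with 20 or more was 43.1% in the distal region and 37.1% over all autosomes. The 6 promoters below belong to genes described further on, whose coverage peaked at the start in some and inside the gene in others. Hs6st3, Pcdh8 and Pou4f1 each had, among listed genes, the largest called gain or loss of at least 1 comparison, and Cldn10 (its second start), Tnfsf11 and Nalcn were chosen after their values were seen. Each runs 5′ to 3′ in the direction of its gene, with every CG in capitals. Hs6st3 lies at chr14:119138015-119138314 on the plus strand with 41 CG, Pcdh8 at chr14:79771263-79771562 on the minus strand with 14, and Pou4f1 at chr14:104467950-104468249 on the minus strand with 57. Cldn10 lies at chr14:118854700-118854999 on the plus strand with 27 CG, Tnfsf11 at chr14:78307994-78308293 on the minus strand with 7, and Nalcn at chr14:123627095-123627394 on the minus strand with 3.
Hs6st3: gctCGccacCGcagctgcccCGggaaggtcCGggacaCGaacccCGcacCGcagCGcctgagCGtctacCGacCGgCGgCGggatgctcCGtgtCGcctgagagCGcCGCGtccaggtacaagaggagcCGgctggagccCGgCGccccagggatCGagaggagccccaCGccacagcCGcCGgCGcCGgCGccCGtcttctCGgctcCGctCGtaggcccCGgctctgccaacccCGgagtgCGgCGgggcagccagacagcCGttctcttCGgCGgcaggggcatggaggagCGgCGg
Pcdh8: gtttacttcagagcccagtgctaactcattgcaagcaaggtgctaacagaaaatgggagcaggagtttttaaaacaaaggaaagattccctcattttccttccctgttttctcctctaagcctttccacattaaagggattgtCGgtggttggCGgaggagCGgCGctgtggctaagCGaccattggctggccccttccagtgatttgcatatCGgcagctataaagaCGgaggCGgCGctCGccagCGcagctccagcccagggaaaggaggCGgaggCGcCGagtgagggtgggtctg
Pou4f1: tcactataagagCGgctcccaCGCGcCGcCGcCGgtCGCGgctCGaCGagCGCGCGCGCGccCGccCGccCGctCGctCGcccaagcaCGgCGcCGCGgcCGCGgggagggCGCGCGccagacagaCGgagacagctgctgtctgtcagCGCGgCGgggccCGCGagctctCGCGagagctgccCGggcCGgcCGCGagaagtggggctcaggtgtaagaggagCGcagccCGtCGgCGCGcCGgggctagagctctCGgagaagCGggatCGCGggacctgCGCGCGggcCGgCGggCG
Cldn10: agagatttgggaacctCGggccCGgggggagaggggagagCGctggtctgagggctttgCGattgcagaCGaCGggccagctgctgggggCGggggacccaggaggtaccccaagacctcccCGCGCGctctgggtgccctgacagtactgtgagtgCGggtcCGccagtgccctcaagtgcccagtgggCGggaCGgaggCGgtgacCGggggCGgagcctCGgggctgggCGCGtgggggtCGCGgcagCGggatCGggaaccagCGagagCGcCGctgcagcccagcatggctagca
Tnfsf11: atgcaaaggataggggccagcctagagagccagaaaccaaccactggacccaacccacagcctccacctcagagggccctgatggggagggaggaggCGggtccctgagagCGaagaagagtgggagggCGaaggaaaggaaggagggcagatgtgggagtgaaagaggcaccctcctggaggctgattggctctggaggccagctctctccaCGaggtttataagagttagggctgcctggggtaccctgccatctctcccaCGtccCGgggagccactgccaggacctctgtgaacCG
Nalcn: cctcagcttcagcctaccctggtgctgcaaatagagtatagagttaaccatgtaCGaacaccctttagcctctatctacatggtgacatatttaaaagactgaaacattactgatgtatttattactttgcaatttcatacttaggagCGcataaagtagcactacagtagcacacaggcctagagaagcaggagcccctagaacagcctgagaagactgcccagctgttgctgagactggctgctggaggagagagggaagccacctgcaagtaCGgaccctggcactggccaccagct

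The deposited values were resolved into whole read overlaps per bin, and normalised coverage is overlaps times the size of 1 step in that library. The libraries held 14850571 overlaps in Braf Base medium, 20914446 in Braf full medium and 12530155 in EV, or about 5985362, 8648828 and 5041726 reads. Epithelial marker genes were checked only at the level of DNA: of 16 ends of 8 colon epithelial genes, 15, 13 and 14 lay under the call minimum in the same order of libraries. Cdh1, Krt20 and Krt8 had an end above it. Cell identity cannot be read from this, since RNA was not analysed here.

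Most distal bins were empty. No read overlapped 91.1% of distal bins in Braf Base medium, 49.4% in Braf full medium and 89.3% in EV. On proximal chromosome 14 the shares were 84.7% in Braf Base medium, 40.2% in Braf full medium and 87.7% in EV. Mean overlaps per distal bin were 0.772 in Braf Base medium, 1.49 in Braf full medium and 0.911 in EV, against proximal means of 1.01, 1.71 and 0.922. Thus all 3 libraries had fewer reads per bin in the distal region, and the gap was widest in Braf Base medium.

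Background was read from 1-kb tiles with under 2 times the mean coverage (0.0597 per bin) in each library, which kept 47023 distal tiles, or 94.2%, and 68702 proximal tiles, or 91.6%. Distal background bins averaged 0.0717 overlaps in Braf Base medium, 0.706 in Braf full medium and 0.0950 in EV. Proximal background bins averaged 0.145 in Braf Base medium, 0.883 in Braf full medium and 0.110 in EV. The distal level over the proximal one was thus 0.495 in Braf Base medium, 0.800 in Braf full medium and 0.861 in EV. The background level itself was several times higher in Braf full medium than in the other libraries, in both regions.

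Of the background reads of chromosome 14, the distal region held 25.3% in Braf Base medium (exact Clopper-Pearson 95% interval 24.8 to 25.8%), 35.4% in Braf full medium (35.2 to 35.6%) and 37.1% in EV (36.5 to 37.7%). It held 40.6% of the background bins. The intervals rest on estimated reads, and these and all intervals below cover counting error only. For the distal background ratios of 2 libraries, proximal reads were taken as exact, so those intervals cover the distal reads alone and are somewhat too narrow.

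Set against proximal chromosome 14, the distal background ratio was 0.619 for Braf Base medium over Braf full medium (0.604 to 0.635) and 0.575 for Braf Base medium over EV (0.557 to 0.593). These 2 ratios use the library that chose the region. The ratio of Braf full medium over EV, which the choice did not use, was 0.928 (0.908 to 0.949). That value turned to 1.03 when the other autosomes were the comparison, so its direction depended on the comparison used. Against the other autosomes the ratios with Braf Base medium were 0.50 over Braf full medium and 0.517 over EV. In organoids as a whole, fewer cells carrying a stretch of DNA and fewer copies of it per cell cannot be told apart, and the number of DNA copies was not measured. A difference in capture between the libraries was not tested either.

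The lowered level ran the whole length of the region. In the 10 distal windows of 5 Mb, Braf Base medium over EV was 0.460 to 0.594 times the ratio on the other autosomes, with a median of 0.525. In 14 windows of chromosome 14 up to 70 Mb it was 0.803 to 1.03. In 466 windows of the other autosomes it was 0.631 to 1.56, and 0 of them lay at or below the highest distal window. Braf Base medium over Braf full medium gave 0.419 to 0.598 in the distal windows, 0.634 to 0.948 up to 70 Mb, and 0.668 to 1.77 on the other autosomes, again with 0 windows at or below the distal highest. Braf full medium over EV gave 0.883 to 1.23 in the distal windows and 0.960 to 1.28 up to 70 Mb, and these ranges overlap.

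**Figure D1:**
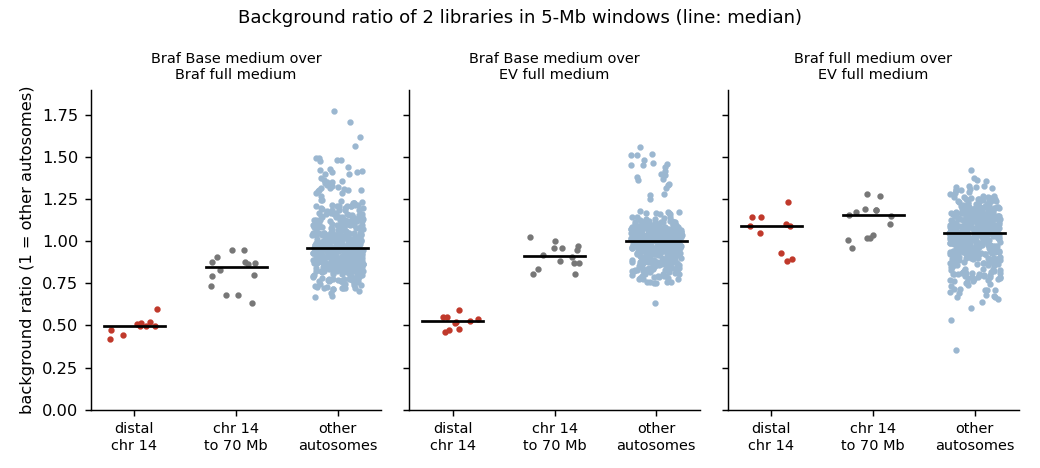
Background ratio of pairs of libraries in windows of 5 Mb (y axis, set to 1 on the other autosomes), each point 1 window and each line a median, for distal chromosome 14, chromosome 14 to 70 Mb and the other autosomes. With Braf Base medium on top, the 10 distal windows lie at 0.419 to 0.598 and below all 466 windows of the other autosomes. The region was chosen on the background of that library. For Braf full medium over EV the distal windows overlap those of the other autosomes.

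The plot of 5-Mb windows shows the region as a separate cluster wherever Braf Base medium is compared. The region was chosen on that same background, so this separation is a description and not support. Within the region, Braf Base medium over EV was lowest from 75 to 80 Mb, at 0.460, which holds Lcp1, Tpt1 and Tsc22d1. It was highest from 95 to 100 Mb, at 0.594, around Dach1 and Klf5. Braf Base medium over Braf full medium was lowest at 0.419 from 90 to 95 Mb, which holds Pcdh9, and highest at 0.598 from 120 to 125 Mb, which holds the Zic pair and Nalcn. Distal tiles more than 10 kb from any gene gave 0.557 for Braf Base medium over Braf full medium, 0.565 over EV and 1.02 for Braf full medium over EV, against like tiles of the other autosomes. The low level was thus also present far from genes.

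The low background did not begin at 75 Mb. The single point that best split chromosome 14 lay at 71.3 Mb for Braf Base medium over Braf full medium and also at 71.3 Mb for Braf Base medium over EV, with 0.599 and 0.566 times the ratio to the right of it. For Braf full medium over EV it lay elsewhere, at 114.6 Mb, with 0.822. The last gene left of 71.3 Mb was Gfra2, a receptor for neurturin, which ended at 70979840. The next protein-coding genes, Gm9195, Gm30500 and then Fndc3a, began at 72431660, 72472092 and 72537948. The 1-Mb windows just outside and just inside 75 Mb were alike, at 0.552 and 0.451 for Braf Base medium over EV and 0.492 and 0.459 over Braf full medium. The genes next to 75 Mb were Htr2a, Esd and Lrch1 outside and Rubcnl, Lrrc63 and Lcp1 inside.

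The window from 70 to 71 Mb gave 0.95 for Braf Base medium over EV, and the one from 71 to 72 Mb gave 0.648. The 4 Mb from 71 to 75 Mb, which hold the tumour suppressor Rb1, had 0.618 times the ratio below 71 Mb for Braf Base medium over EV and 0.557 times over Braf full medium. For Braf full medium over EV they had 1.11 times. With chromosome 14 below 71 Mb as the comparison, chosen after the data were seen, the distal ratios were 0.605, 0.564 and 0.933 for Braf Base medium over Braf full medium, Braf Base medium over EV, and Braf full medium over EV.

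**Figure D2:**
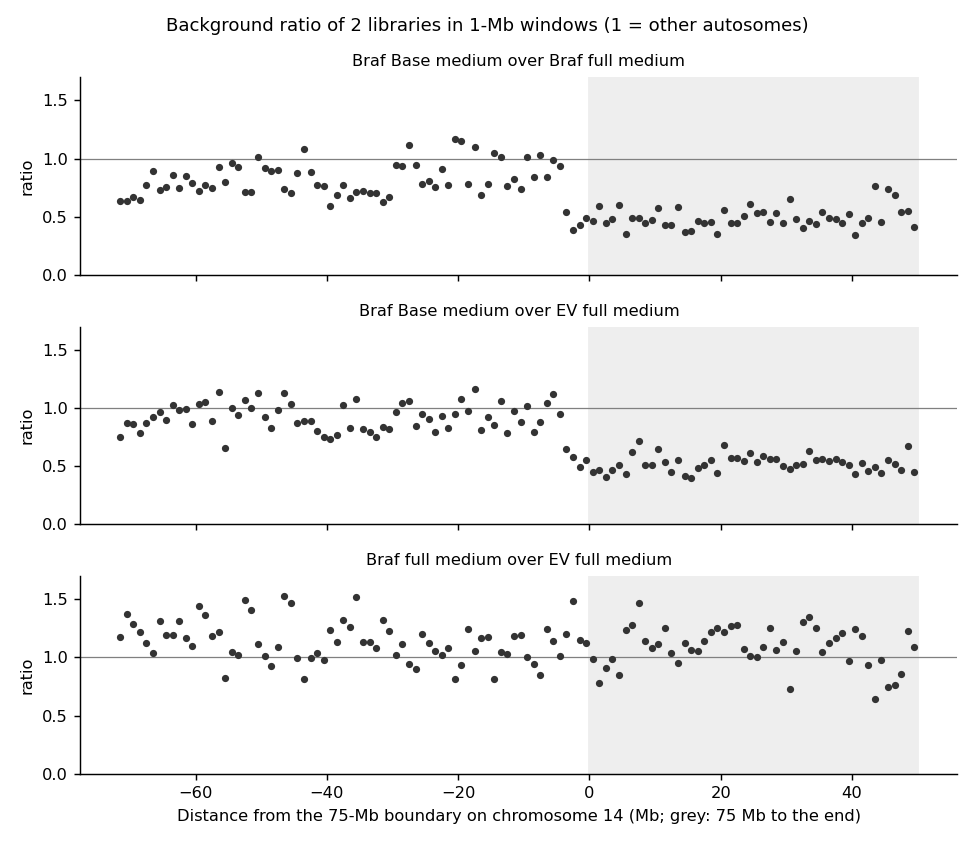
Background ratio in 1-Mb windows (y axis, 1 on the other autosomes) against distance from 75 Mb on chromosome 14 in Mb (x axis), 1 panel per pair of libraries, with the distal region in grey. With Braf Base medium on top, the points step down left of the grey field, between 71 and 72 Mb. Over EV they stay at or below 0.718 to the end, over Braf full medium they reach 0.763 near the end, and Braf full medium over EV shows no such step.

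The view along the chromosome sets 50 distal windows beside 68 windows below 71 Mb. Braf Base medium over EV was 0.401 to 0.718 in the distal windows and 0.659 to 1.17 below 71 Mb, where 1 window lay at or below the highest distal one. Braf Base medium over Braf full medium was 0.347 to 0.763 in the distal windows and 0.594 to 1.17 below 71 Mb, where 27 windows lay at or below the highest distal one. The highest distal windows of this pair were 118 to 119 Mb at 0.763, which holds Sox21 and Cldn10, and 120 to 121 Mb at 0.737. Their ratios over EV were 0.492 and 0.552. Braf full medium over EV was 0.644 to 1.47 in the distal windows and 0.813 to 1.53 below 71 Mb.

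Methylated stretches, where capture is strong, were also weaker in Braf Base medium, though less so than the background. Tiles at 5 or more times the mean coverage in both Braf full medium and EV were chosen without the Braf Base medium library. The 1031 such distal tiles averaged a normalised coverage of 1.16 in Braf Base medium, 1.62 in Braf full medium and 1.78 in EV. The 56523 on the other autosomes averaged 1.43 in Braf Base medium, 1.53 in Braf full medium and 1.66 in EV. Distal Braf Base medium over EV was therefore 0.652, against 0.782 on chromosome 14 below 71 Mb and 0.860 on the other autosomes. Braf full medium over EV was 0.910 in the distal region, 0.918 below 71 Mb and 0.920 on the other autosomes. The distal tiles stood apart with Braf Base medium, and lay close to the other autosomes without it.

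By 5-Mb segment, the bright tiles of the distal region had Braf Base medium over EV of 0.574, from 120 to 125 Mb, to 0.731, from 80 to 85 Mb. Chromosome 14 up to 70 Mb had 0.675 to 0.864 per segment. The background and the bright tiles did not have their extremes in the same segments. The bright tiles from 71 to 75 Mb, 66 in number, had 0.617.

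Relative to the other autosomes, distal Braf Base medium over EV was 0.517 in background tiles, 0.572 in tiles averaging 2 to 5 times the mean in Braf full medium and EV, 0.618 at 5 to 10 times, 0.624 at 10 to 20 times and 0.790 above 20 times. Chromosome 14 below 71 Mb ran from 0.912 to 0.927 over the same classes. The distal ratio thus lay closer to that of the other autosomes in each brighter class. The background class was set on all 3 libraries and the others on Braf full medium and EV.

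**Figure D3:**
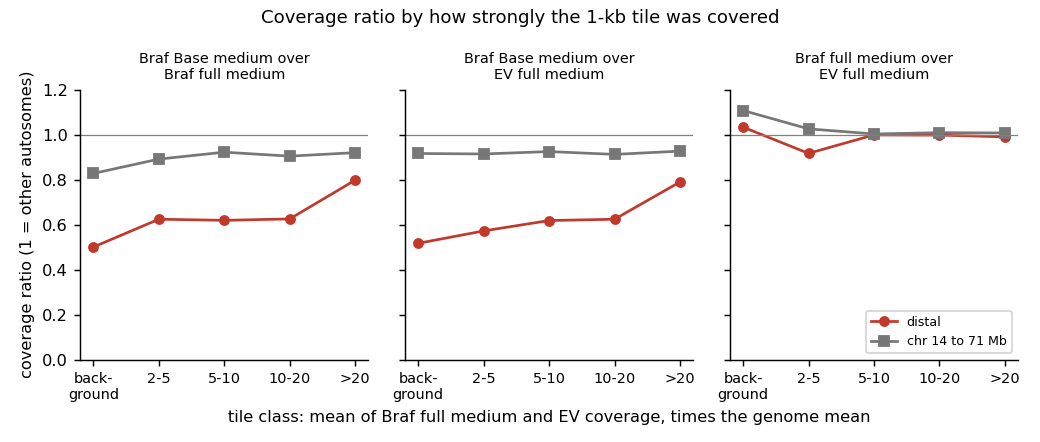
Coverage ratio of pairs of libraries relative to the other autosomes (y axis) by class of tile, from background to over 20 times the mean coverage of Braf full medium and EV (x axis), for distal chromosome 14 (circles) and chromosome 14 below 71 Mb (squares). Distal Braf Base medium over EV goes from 0.517 in background tiles to 0.790 in the brightest class, and Braf full medium over EV stays between 0.917 and 1.03.

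The plot by brightness shows the distal line below the proximal one in all 5 classes with Braf Base medium on top. Tiles reaching 2 times the mean coverage made up 2.48% of distal tiles in Braf Base medium, 5.28% in Braf full medium and 3.71% in EV. Of the distal tiles covered in both Braf full medium and EV, 74.2% were also covered in Braf Base medium, against 81.6% on proximal chromosome 14 and 83.7% on the other autosomes. Distal tiles covered in Braf Base medium alone numbered 3, or 0.00601%, against 0.112% on the other autosomes. Those in Braf full medium alone numbered 996, or 2.0%, against 3.05%, and those in EV alone 228, or 0.457%, against 0.548%.

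A tile was called gained or lost when 0.0597 was added to the coverage of both libraries and their log2 ratio passed 1 or -1, and when the higher library had at least 0.119. Log2 ratios understate changes of weakly covered tiles on this scale. The comparisons share libraries, so their calls are not independent, and the values of all 3 libraries are given side by side. In Braf full medium over EV, 859 of 2877 distal tiles were gained, or 29.9%, against 36.1% over all autosomes, and 145 were lost, or 5.04%, against 4.54%. This split depended on the scaling: it was 176 gained and 565 lost with equal library totals, and 209 gained and 246 lost with the background subtracted.

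In Braf Base medium over EV, 34 of 1884 distal tiles were gained, or 1.80%, against 5.14% over all autosomes, and 737 were lost, or 39.1%, against 20.3%. With each library divided by its own distal over proximal background ratio, 114 of 2125 were gained, or 5.36%, against 5.20% over all autosomes, and 365 were lost, or 17.2%, against 20.0%. The share lost was thus above that of all autosomes as deposited and below it after the division. That division uses the background that chose the region, so fewer losses against EV follow from it. Relative to the other autosomes, Braf Base medium over EV was 0.517 in distal background and 0.758 in bright distal tiles. The division thus exceeds the shift of the bright tiles. In Braf Base medium over Braf full medium, 8 of 2652 were gained, or 0.302%, against 1.49%, and 1353 were lost, or 51.0%, against 42.5%. Proximal chromosome 14 had a higher share lost there, 56.1%. Equal totals gave 35 gained and 280 lost in the distal region, and division by the background ratios gave 43 gained and 2957 lost, or 59.0% of 5012.

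Gained distal tiles in Braf Base medium were counted near gene starts, and neighbouring tiles can belong to 1 run. Of the 34 gained over EV, which formed 25 runs, 18 lay within 2500 bp of a RefSeq start, or 52.9%, against 5.68% of the distal tiles tested. Of the 8 gained over Braf full medium, 4 did, against 4.41% of those tested. Of the 737 lost against EV, 8.96% did. In Braf full medium over EV, 5.24% of the 859 gained and 11.7% of the 145 lost did, against 4.73% of those tested. The like shares over all autosomes were not computed, so these shares cannot be called particular to the region.

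At gene ends, read in windows of 1 kb to each side, distal coverage was low: 187 of 222 ends stayed under the call minimum in all 3 libraries. Windows with 0 overlaps numbered 131 in Braf Base medium, 3 in Braf full medium and 88 in EV. In Braf full medium over EV, 9 ends were gained, or 4.05%, against 4.64% over 41330 ends of the autosomes, and 3 were lost, or 1.35%, against 0.602%. Equal totals gave 5 gained and 8 lost, and subtracting the background gave 6 and 5. Of the 9 gains, 6 were still called with the background subtracted, and those at Klhl1, Pibf1 and the start of Abcc4 were not. In Braf Base medium over Braf full medium, 1 was gained, or 0.450%, against 1.03%, and 14 in 13 genes were lost, or 6.31%, against 2.94%. Equal totals gave 1 gained and 3 lost.

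In Braf Base medium over EV, 4 ends were gained, or 1.80%, against 3.23%, and 17 in 16 genes were lost, or 7.66%, against 1.4%. On proximal chromosome 14 the same comparison had 50 gained and 12 lost of 1480 ends. Division by the background ratio of each library gave 6 gained and 8 lost in the distal region, and all 4 gains were among these 6. More gains and fewer losses follow from dividing by the background that chose the region. The median log2 ratio over the distal ends was 0.61 for Braf full medium over EV, -0.80 for Braf Base medium over Braf full medium and -0.10 for Braf Base medium over EV, beside 0.66, -0.61 and 0.00 over all ends. The medians of both pairs with Braf full medium lay away from 0 over the whole table, and that of Braf Base medium over EV did not.

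**Figure D4:**
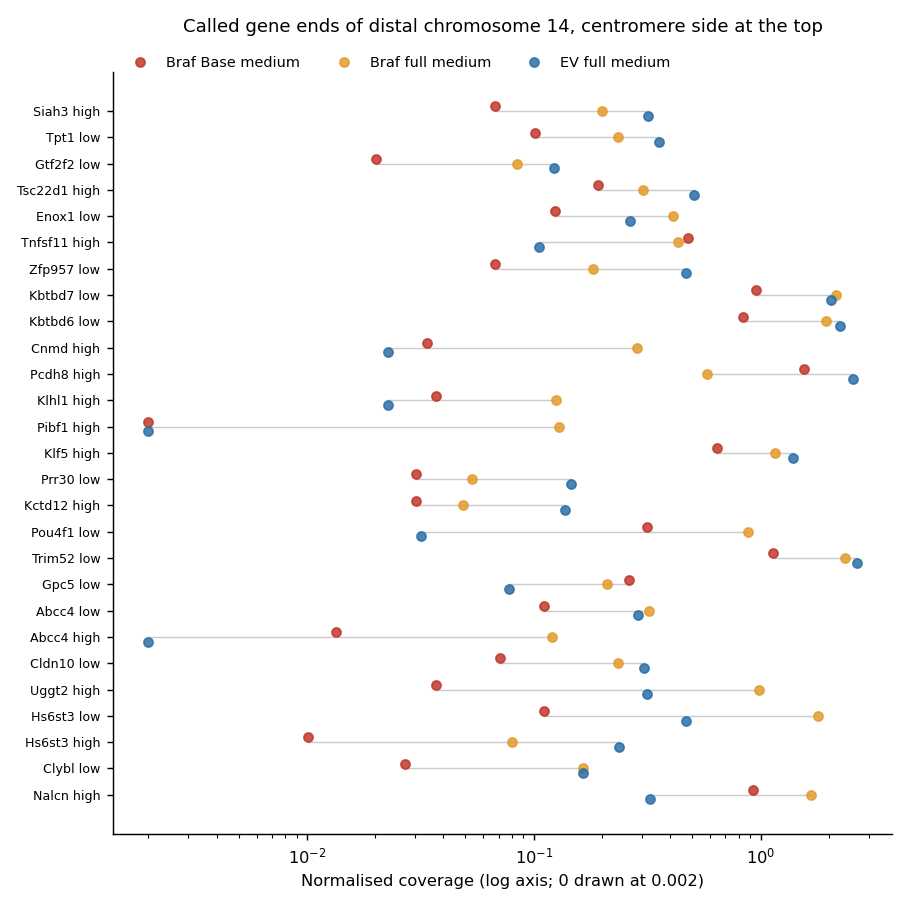
Normalised coverage (log axis, 0 drawn at 0.002) at the distal gene ends called in at least 1 comparison, from the centromere side at the top to the chromosome end, with 1 point per library. Low and high name the end with the lower and higher coordinate. The Braf Base medium point lies left of both others at most ends, and well right of EV at Pou4f1, Tnfsf11, Gpc5 and Nalcn, the 4 ends called gained over EV.

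The view of called gene ends is described by role, beginning with the transcription factors. Pou4f1, a POU homeodomain factor of sensory neurons, had at its far end, 104461675, coverage of 0.317 in Braf Base medium, 0.882 in Braf full medium and 0.0319 in EV. Both Braf libraries lay above EV, and Braf full medium above Braf Base medium. Braf full medium was 27.6-fold above EV (8.58 to 128), Braf Base medium 9.91-fold above EV (2.96 to 47.3), and Braf Base medium 2.79-fold below Braf full medium (1.87 to 4.20). Its promoter, printed above, holds 57 CG. The window of 1 kb to each side of that start had 0.0202 in Braf Base medium, 0.129 in Braf full medium and 0 in EV. The Braf full medium value lay above the call minimum of 0.119, with 12 overlaps in the bin 1098 bases past the start. The peak lay inside the gene, 2098 bases past the start, where the highest bin had 106 overlaps in Braf Base medium, 137 in Braf full medium and 9 in EV.

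Pou4f1 was the only gene called among the 5 developmental factors Pou4f1, Sox21, Zic2, Zic5 and Dach1 at gene ends, in each of the comparisons. At Sox21, a factor of neural progenitors, a tile more than 2 kb into the gene differed although its ends were not called. From 118234001 to 118235000 it had 2.15 in Braf Base medium, 0.804 in Braf full medium and 0.181 in EV, the highest in Braf Base medium. It was gained 2.67-fold over Braf full medium and 11.9-fold over EV. At Zic5, a zinc finger factor of neural development, the tile from 122464001 to 122465000 had 0.341 in Braf Base medium, 0.108 in Braf full medium and 0.171 in EV. These and the other tiles named were chosen after their values were seen.

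Of the 7 protocadherin and Slitrk genes, which encode neural adhesion proteins, Pcdh8 alone was called at a gene end. Its start had 1.56 in Braf Base medium, 0.579 in Braf full medium and 2.56 in EV. Braf full medium was thus the lowest, 4.42-fold below EV (3.26 to 6.05), and Braf Base medium 2.69-fold above Braf full medium (1.96 to 3.69). It was the single distal end gained in Braf Base medium over Braf full medium. The signal lay downstream of the start whose 14 CG are printed above, and its highest bin, 1212 bases into the gene in Braf Base medium and EV, had 144 overlaps in Braf Base medium and 199 in EV. Further in, the order changed. The bin at 2612 bases had a coverage of 3.59 in Braf Base medium, 0.931 in Braf full medium and 2.31 in EV.

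Pcdh17 and Pcdh9 were not called at their ends but held gained tiles. Pcdh17 had, from 84445001 to 84447000, 0.856 in Braf Base medium, 1.0 in Braf full medium and 0.136 in EV. Pcdh9 had, from 93890001 to 93892000, 0.519 in Braf Base medium, 0.696 in Braf full medium and 0 overlaps in EV. In these 2 stretches both Braf libraries lay above EV. Other tiles of the same genes had another order. The next tile of Pcdh17, from 84447001 to 84448000, had 0.822 in Braf Base medium, 0.323 in Braf full medium and 0.381 in EV. A tile of Pcdh9 from 93049001 to 93050000 had 1.06 in Braf Base medium, 1.25 in Braf full medium and 2.59 in EV.

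Among the heparan sulphate genes, Hs6st3, a sulphotransferase of heparan sulphate chains, had at its start 0.111 in Braf Base medium, 1.79 in Braf full medium and 0.470 in EV. Braf full medium was the highest and Braf Base medium the lowest. Braf full medium was 3.80-fold above EV (2.72 to 5.55), Braf Base medium 16.1-fold below Braf full medium (9.37 to 31.6) and 4.23-fold below EV (2.25 to 8.71). After division by the background ratios, the log2 ratio of Braf Base medium over EV was -1.09, against -1.63 as deposited, and over Braf full medium -3.01, against -3.43. The peak sat on the CG-rich promoter, with 111 overlaps in the highest bin in Braf full medium, 164 bases before the start.

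The far end of Hs6st3 had 0.0101 in Braf Base medium, 0.0802 in Braf full medium and 0.237 in EV, and was called lost in both Braf libraries against EV. The start of the glypican Gpc5 had 0.263 in Braf Base medium, 0.209 in Braf full medium and 0.0776 in EV, with Braf Base medium 3.39-fold above EV (1.41 to 8.78). Inside Gpc5, by contrast, the stretch from 115116001 to 115118000 had 1.34 in Braf Base medium, 1.79 in Braf full medium and 3.03 in EV. Gpc6 had no called end.

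Uggt2, which helps recognise misfolded glycoproteins in the endoplasmic reticulum, starts close to Hs6st3 and had the same order of libraries. Its start had 0.0370 in Braf Base medium, 0.984 in Braf full medium and 0.315 in EV. Braf Base medium was 26.6-fold below Braf full medium (11.1 to 110) and 8.50-fold below EV (3.32 to 37.3). These losses were also called after division by the background ratios.

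**Figure D5:**
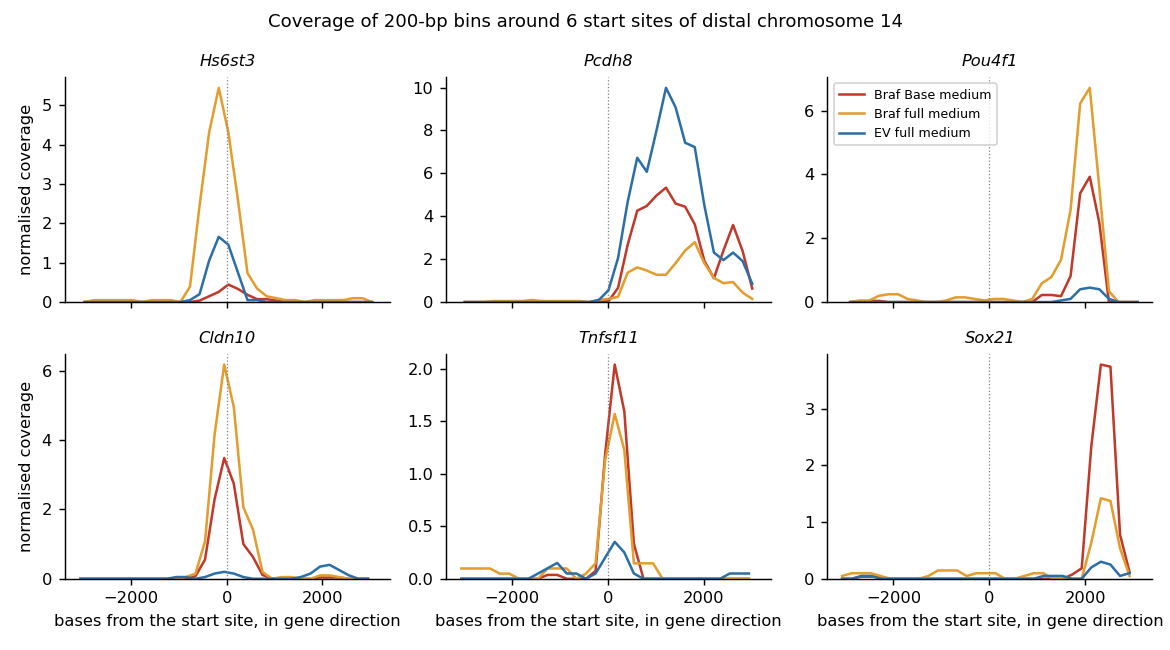
Normalised coverage of 200-bp bins (y axis, scaled per panel) by distance in bases from the start site in the direction of the gene (x axis), for 6 distal genes and 3 libraries. Hs6st3 and Cldn10 peak at the start, and Pcdh8, Pou4f1 and Sox21 inside the gene. The order of the libraries differs between genes. EV is highest at the main peak of Pcdh8, and Braf Base medium at a smaller peak further into that gene. Braf full medium is highest at Hs6st3, Cldn10 and Pou4f1, and Braf Base medium at Tnfsf11 and Sox21.

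The start profiles show narrow peaks except at Pcdh8, where EV had 41 overlaps 212 bases into the gene and still 38 at 2812. The highest bin lay at the same position in all 3 libraries at Pou4f1, Tnfsf11 and Sox21. At Cldn10 it lay 50 bases before the start in both Braf libraries and 2150 past it in EV, with 8 overlaps. At Pcdh8 and Hs6st3 it also differed between libraries. Braf Base medium is not uniformly the lowest. Among 9 genes of the intestinal epithelium, Cldn10, a tight junction claudin with alternative first exons, had 2 starts that differed. Its second start, shown in the profiles and printed above, had 0.990 in Braf Base medium, 1.84 in Braf full medium and 0.0639 in EV. Its first start had 0.0707 in Braf Base medium, 0.236 in Braf full medium and 0.306 in EV, and this end was called lost in Braf Base medium against both others.

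Klf5, a zinc finger factor of proliferating crypt cells, had at its high end 0.640 in Braf Base medium, 1.16 in Braf full medium and 1.39 in EV. It was called lost in Braf Base medium over EV, 2.17-fold (1.60 to 2.90). It was not called after division by the background ratios, which rest on the background that chose the region. The start of Abcc4, an exporter of cyclic nucleotides and drugs, had 0.0135 in Braf Base medium, 0.12 in Braf full medium and 0 overlaps in EV, at least 3.53-fold higher in Braf full medium than a floor of 3 reads in EV. That gain was not called with the background of each library subtracted. The far end of Abcc4 had 0.111 in Braf Base medium, 0.321 in Braf full medium and 0.287 in EV, and was called lost in Braf Base medium against both. The other 6, among them Klf12, Elf1 and the stem cell gene Olfm4, had no called end.

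Of 10 signalling genes, Tnfsf11 was gained and Tsc22d1 lost. Tnfsf11, the RANK ligand that induces M cells in gut epithelium, had at its start 0.478 in Braf Base medium, 0.432 in Braf full medium and 0.105 in EV. The Braf libraries were alike and above EV, by 4.56-fold in Braf Base medium (2.29 to 10.7) and 4.12-fold in Braf full medium (2.02 to 9.89). Tsc22d1, a leucine zipper gene induced by TGF-beta, had at its far end 0.192 in Braf Base medium, 0.303 in Braf full medium and 0.507 in EV. Dgkh, a diacylglycerol kinase, had no called end, but its tile from 78724001 to 78725000 had 0.934 in Braf Base medium, 0.931 in Braf full medium and 0.0502 in EV. The ERK antagonist Spry2 and the endothelin receptor Ednrb were not called, and the far end of Ednrb had 0.216 in Braf Base medium, 0.196 in Braf full medium and 0.265 in EV.

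Outside the lists, Nalcn, which encodes a sodium leak channel, had at its start 0.926 in Braf Base medium, 1.66 in Braf full medium and 0.324 in EV. Both Braf libraries lay above EV, by 2.86-fold in Braf Base medium (1.86 to 4.40) and 5.13-fold in Braf full medium (3.38 to 7.78). Its promoter holds 3 CG, the fewest of the 6 printed above. The start of Cnmd, which encodes the cartilage protein chondromodulin, had 0.0337 in Braf Base medium, 0.285 in Braf full medium and 0.0228 in EV. The start of Klhl1 had 0.0370 in Braf Base medium, 0.125 in Braf full medium and 0.0228 in EV. The start of Enox1 had 0.125 in Braf Base medium, 0.410 in Braf full medium and 0.265 in EV, and was called lost in Braf Base medium over Braf full medium. The far end of Pibf1 had 0 overlaps in Braf Base medium, a coverage of 0.129 in Braf full medium and 0 overlaps in EV, at least 3.80-fold higher in Braf full medium than 3 reads in EV. Mean background coverage over the autosomes was itself 0.0400 in Braf full medium and 0.00567 in EV. With it subtracted, the gains over EV at Klhl1 and Pibf1 were not called.

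Several losses in Braf Base medium lay at strongly covered ends where Braf full medium and EV were alike. Trim52, of the TRIM ubiquitin ligase family, had at its start 1.13 in Braf Base medium, 2.36 in Braf full medium and 2.66 in EV. The start of Kbtbd7, an adaptor of a cullin ubiquitin ligase, had 0.956 in Braf Base medium, 2.15 in Braf full medium and 2.04 in EV. The low end of its neighbour and paralogue Kbtbd6 had 0.835 in Braf Base medium, 1.94 in Braf full medium and 2.23 in EV. Their log2 ratios of Braf Base medium over EV were -1.19 for Trim52, -1.05 for Kbtbd7 and -1.36 for Kbtbd6. After division by the background ratios they were -0.42, -0.29 and -0.60, and none of the 3 was called. That division uses the background that chose the region, and strongly covered distal tiles were lowered less than that background.

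Weaker ends made up most of the other losses. Of 8 translation, secretion and housekeeping genes, Tpt1, Gtf2f2 and Uggt2 were lost in Braf Base medium over EV. The start of Tpt1, which encodes an abundant translationally controlled protein, had 0.101 in Braf Base medium, 0.236 in Braf full medium and 0.356 in EV. The far end of Gtf2f2, a subunit of the general transcription factor TFIIF, had 0.0202 in Braf Base medium, 0.0846 in Braf full medium and 0.123 in EV. The start of Clybl, a mitochondrial lyase, had 0.0269 in Braf Base medium, 0.165 in Braf full medium and 0.164 in EV. The far end of Zfp957 had 0.0674 in Braf Base medium, 0.183 in Braf full medium and 0.470 in EV, and was lost in both Braf libraries against EV. Siah3, Prr30 and Kctd12 completed the losses against EV.

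The 6 cell cycle and RNA decay genes, Diaph3, Bora, Mzt1, Dis3, Sugt1 and Tdrd3, had no called end in these comparisons, and neither had the 6 immune genes measured in the region. The high end of Bora, a cofactor of Aurora A kinase, had 0.0909 in Braf Base medium, 0.160 in Braf full medium and 0.183 in EV. The far end of the receptor gene Gpr18 had 0.330 in Braf Base medium, 0.503 in Braf full medium and 0.575 in EV. The immune gene Cysltr2 has its low end at 73025672, outside the region but right of the 71.3-Mb split, and that end had 0.189 in Braf Base medium, 0.535 in Braf full medium and 0.808 in EV.

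Medians over the ends of each list for Braf Base medium over EV ran from -0.21, in the cell cycle and the immune genes, to 0.00 in the developmental factors and the signalling genes. Rb1, outside the region but right of the 71.3-Mb split, had 1.79 in Braf Base medium, 2.44 in Braf full medium and 2.51 in EV at its low end.

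Between genes, the gain in Braf full medium over EV with the largest difference in summed coverage lay near the end of the chromosome, from 124801001 to 124803000, 123315 bp from Fgf14, with 0.693 in Braf Base medium, 4.25 in Braf full medium and 0.768 in EV. Another, from 104472001 to 104475000 near Pou4f1, had 0.0692 in Braf Base medium, 0.905 in Braf full medium and 0 overlaps in EV. In the non-coding gene Gm5089, the tile from 122406001 to 122407000 had 1.38 in Braf Base medium, 3.47 in Braf full medium and 0.100 in EV. Braf full medium was the highest library in all 3 stretches.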

How the data were processed

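DNA methylation was profiled by MBD-seq in 3 libraries of colon organoids, 1 per group, so no test was possible. Per the labels' protocols, sheared DNA was captured on MBD beads and sequenced as single 50-bp reads. Per the submitters' processing notes, Bowtie2 was used with the mm10 build. How bins were counted and normalised was not given in the sources used here. Deposited log2 values, made by the authors per 200-bp bin, equal a shared floor of 0.0153 plus whole steps of 0.0370 in Braf Base medium, 0.0490 in Braf full medium and 0.0502 in EV after raising 2 to them. These whole numbers served as read overlaps, and their product with the step, leaving out the floor, served as normalised coverage. A lone read covered 2.48 bins in Braf Base medium, 2.42 in Braf full medium and 2.49 in EV on average, which gave the estimated reads behind the intervals. How the authors set the steps decides how libraries compare. Distal over proximal background ratios within a library depend on the steps only through the choice of background tiles, which used the coverage of all 3 libraries.

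Coverage was averaged over 1-kb tiles and over windows of 1 kb to each side of gene ends, with the gene table of GRCm38.p6, the assembly mm10 stands for. A call needed a log2 ratio past 1 or -1 with the mean coverage, 0.0597, added to each library, and 2 times that mean in the higher library. Without strand in the gene table, an end was called a start only where a RefSeq promoter lay there. The call step was tested on simulated data. Named genes were up to 8 of the largest called gains and losses per comparison, the members of the fixed lists, and the 3 genes on each side of 75 Mb. The region, its lists and its thresholds were chosen with earlier results of these data known. Alternatives were other background limits, comparison regions, scalings, pseudocounts and minimums. The sex chromosomes were not analysed here. Python 3.11.15, numpy 2.4.6, pandas 2.3.3, scipy 1.17.1 and matplotlib 3.10.9 were used.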

Additional observations from a re-analysis of the deposited data

How the results depend on the processing

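No paired analysis was possible because each group had 1 library, and leaving out a library would remove a group. The depth, about 5041726 to 8648828 reads per library, leaves most distal bins empty, so single ends with few overlaps carry wide intervals. Equal totals shift Braf full medium by -0.70 and Braf Base medium by 0.19 on the log2 scale relative to EV.

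The distal over proximal background ratio of Braf full medium over EV, 0.928, was 1.01 and 0.891 with background under 1 and 5 times the mean, 0.999 by share of bins with an overlap, 0.963 far from genes, 1.03 against the other autosomes and 0.949 from 80 Mb on. Braf Base medium over Braf full medium, 0.619, was 0.539, 0.677, 0.591, 0.665 and 0.50 under the first 5 of these. Braf Base medium over EV, 0.575, was 0.545 and 0.603 under the other limits, 0.641 far from genes and 0.517 against the other autosomes.

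Calls are given as gained, then lost, naming the settings that moved them by over 1.5 times. Tiles in Braf full medium over EV (859, 145) came to 176 and 565 with equal totals, 209 and 246 with the background subtracted, 46 and 20 with 4 times the pseudocount, and 51 and 72 with a minimum of 5 times the mean. Gains were 2853 after division by the background ratios and 7003 with no minimum. After that division 5087 tiles were tested, against 2877 as deposited. Tiles in Braf Base medium over Braf full medium (8, 1353) came to 35 and 280 with equal totals, 43 and 2957 after division, 4 and 121 with the larger pseudocount, and 13 and 8075 with no minimum. Losses were 533 with the background subtracted and 275 with the higher minimum. Tiles tested for this pair numbered 5012 after division, against 2652 as deposited. Tiles in Braf Base medium over EV (34, 737) came to 114 and 365 after division, 17 and 221 with the larger pseudocount, and 21 and 443 with the higher minimum.

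Gene ends in Braf full medium over EV (9, 3) came to 5 and 8 with equal totals and 5 and 1 with the larger pseudocount. Gains were 16 after division, 5 with the higher minimum and 40 with no minimum, and losses 5 with the background subtracted. Losses in Braf Base medium over Braf full medium (14) were 3 with equal totals, 4 with the larger pseudocount, 8 with the higher minimum and 65 with no minimum. Losses in Braf Base medium over EV (17) were 8 after division, 5 with the larger pseudocount and 11 with the higher minimum. For the named gene ends, 169 of the recomputed log2 ratios were not moved, 23 were and 0 reversed. A ratio counted as not moved could still fall short of a call. In Braf Base medium over Braf full medium the high end of Siah3 had -1.03 as deposited and -0.44 with equal totals. Division by the background ratios raised distal coverage against an unchanged minimum, so more distal tiles reached it. What lay behind the other shifts was not tested.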

Other observations

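The miR-17-92 cluster, which promotes proliferation in many cell types, lies in the distal region at 115043671 to 115044506 with 6 hairpins. The 15 bins read, which include flanks of the cluster, had 53 overlaps in Braf Base medium, 66 in Braf full medium and 38 in EV. Their normalised coverage was 0.131 in Braf Base medium, 0.216 in Braf full medium and 0.127 in EV. In Braf Base medium and EV these overlaps lay before the start of the host gene Mir17hg. Bins from 110 to 910 bases past that start had 0 overlaps in both libraries. The Braf Base medium and EV values thus come from upstream of the hairpins. The cluster was chosen after its values were seen.

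Within gene bodies, losses in Braf Base medium spread over several tiles of 1 gene. Mbnl2, a splicing regulator, had 1.39 in Braf Base medium, 3.07 in Braf full medium and 2.85 in EV from 120357001 to 120359000. Gpr180 had 0.625 in Braf Base medium, 1.57 in Braf full medium and 1.52 in EV from 118159001 to 118163000. Abcc4 had 0.722 in Braf Base medium, 1.64 in Braf full medium and 1.84 in EV from 118609001 to 118612000. In these 3 stretches Braf full medium and EV lay close to each other, but in other lost stretches they did not. Abcc4 from 118636001 to 118644000 had 0.194 in Braf Base medium, 0.366 in Braf full medium and 0.569 in EV. Uggt2 from 119098001 to 119103000 had 0.0796 in Braf Base medium, 0.710 in Braf full medium and 0.354 in EV.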
